A study of Mus musculus with 9 samples.

Results

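The Src family and the related Ptk6 family are cytoplasmic tyrosine kinases built from an SH3 domain, an SH2 domain and a kinase domain. The 9 genes described here are Ptk6, Srms, Frk, Src, Fyn, Yes1, Lyn, Fgr and Lck, chosen by symbol from the 55471 genes of the count matrix, with the Src family kinase Blk set beside them. RNA was sequenced from the gastrocnemius, a calf muscle, of newborn C57BL/6 mice at postnatal day 0 to 1, with 1 library per mouse. The 5 Shank3Δ11(-/-) mice (KO1 to KO5) are homozygous for a deletion of exon 11 of Shank3, a postsynaptic scaffold gene, and were bred from heterozygous C57BL/6JRj parents. The 4 Shank3(+/+) mice (WT1 to WT4) carry the intact gene. Neither group was treated, and the labels give no sex. Libraries held 26444372 to 40471957 counts. KO2 and KO4 were left out by the study for read number, although in the deposited counts KO4 has the highest total of the 9 mice and KO2, with 28211941 counts, exceeds KO5, which was kept. The main comparison follows the study, with KO1, KO3 and KO5 against 4 WT mice, and values from all 9 mice stand beside it. The labels do not say whether mice came from separate litters, so p-values measure only the spread between these mice. The count of Shank3 covers the whole gene, not the deleted exon, and therefore does not check the genotype: it was 31.5 ± 2.33 CPM (SD, n = 3) in KO and 34.3 ± 2.90 CPM (SD, n = 4) in WT mice (CPM, counts scaled to a common library total).

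In resting cells, Src family kinases are held closed when a tyrosine near the carboxyl end, phosphorylated by the kinase Csk, binds the SH2 domain of the same molecule. Removal of that phosphate by phosphatases such as Ptpra, or binding of a partner to the SH2 or SH3 domain, opens the enzyme. Src, Fyn and Yes1 are made in most tissues, including muscle. Lyn, Fgr, Lck and Blk are best known from blood cells, Lck from T cells and Blk from B cells. Ptk6 (also called Brk), Srms and Frk are best known from epithelia, and Ptk6 phosphorylates RNA-binding proteins such as Khdrbs1 (Sam68).

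The coding ends show how the members are related and where that tyrosine lies. Each line gives the last 20 codons of the principal transcript (GENCODE M21, GRCm38/mm10), 5′ to 3′ on the sense strand without the stop codon, with the last tyrosine codon in capitals.
Src: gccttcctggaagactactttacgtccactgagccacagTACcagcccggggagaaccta
Fyn: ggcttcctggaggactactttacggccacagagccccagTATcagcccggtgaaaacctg
Yes1: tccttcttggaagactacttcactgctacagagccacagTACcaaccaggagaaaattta
Fgr: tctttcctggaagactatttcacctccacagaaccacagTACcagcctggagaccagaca
Lyn: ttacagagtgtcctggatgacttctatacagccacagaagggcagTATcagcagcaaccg
Lck: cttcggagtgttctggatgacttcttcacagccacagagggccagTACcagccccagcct
Frk: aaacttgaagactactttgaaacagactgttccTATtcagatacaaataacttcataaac
Ptk6: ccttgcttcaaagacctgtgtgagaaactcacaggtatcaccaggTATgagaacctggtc
Srms: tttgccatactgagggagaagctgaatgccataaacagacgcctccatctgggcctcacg
In Src, Fyn, Yes1 and Fgr the last tyrosine codon is followed by 6 codons, and in Lyn, Lck and Ptk6 by 4. It is codon 529 of 535 in Src, codon 528 of 534 in Fyn, codon 505 of 509 in Lck and codon 447 of 451 in Ptk6. The end of Srms holds 0 tyrosine codons. The second codon encodes glycine, the residue that can carry a membrane-anchoring myristate, in 7 of the 9 members. The exceptions are Ptk6 and Srms.

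Ptk6 and Srms are neighbours on the minus strand of chromosome 2, at chr2:181193721-181202789 and chr2:181205562-181213185 (GRCm38). Src lies at chr2:157418444-157471862. Frk (chr10:34483399-34611278) and Fyn (chr10:39368855-39565381) share chromosome 10. Lyn (chr4:3678115-3813122), Fgr (chr4:132974095-133001910) and Lck (chr4:129548344-129573641) lie on chromosome 4, and Yes1 lies at chr5:32611171-32687057. Lck is on the minus strand, and the remaining 6 of these are on the plus strand. Exons of Yes1 overlap 635 bases of Gm10461 and those of Lyn 248 bases of Gm26857, each on the opposite strand. Exons of Lck overlap 25 bases of Mir8119 on the same strand. Of all 50-base windows of the transcripts, 18.3% in Lyn, 8.35% in Yes1 and 0.385% in Ptk6 also occur in transcripts of other genes, so the counts of these genes could share reads. No such window was found in the other 6 members.

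Transcripts of Fyn were the most abundant of the family in newborn muscle. Levels of different genes are compared here as CPM per kb of exon. Fyn stood at 20.9 ± 1.26 (SD, n = 9 mice), followed by Yes1 at 5.87 ± 1.40, Lyn at 4.95 ± 0.557 and Src at 4.03 ± 0.465. Fyn was 3.55 times as high as Yes1 on this scale, with no overlap between their values in 9 mice. Yes1 exceeded Lyn in only 6 of 9 mice and Lyn exceeded Src in 7 of 9, so the order of these 3 neighbours is not beyond their spread. Frk, at 1.18 ± 0.229, lay below Src in each of 9 mice, by 3.40-fold in the mean and with no overlap. A wide step of 6.62-fold separated Frk from Lck, at 0.179 ± 0.0756. Fgr stood at 0.106 ± 0.0361 and Srms at 0.0409 ± 0.0184. Blk, at 0.0261 ± 0.0338, and Ptk6, at 0.00973 ± 0.0105, were the lowest, and Blk exceeded Ptk6 in 5 of 9 mice. The ranges of Lck and Fgr, of Fgr and Srms, of Srms and Blk and of Blk and Ptk6 overlapped.

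Of the summed level of the 9 members per kb, Fyn made up 50.8% to 60.9%, Yes1 9.94% to 20.1%, Lyn 11.9% to 16.7% and Src 9.42% to 13.2% in single mice. Ptk6 contributed at most 0.0732%. The share of Fyn was 55.8% ± 4.35 (SD, n = 3) in KO and 57.0% ± 4.52 (SD, n = 4) in WT mice.

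**Figure D1:**
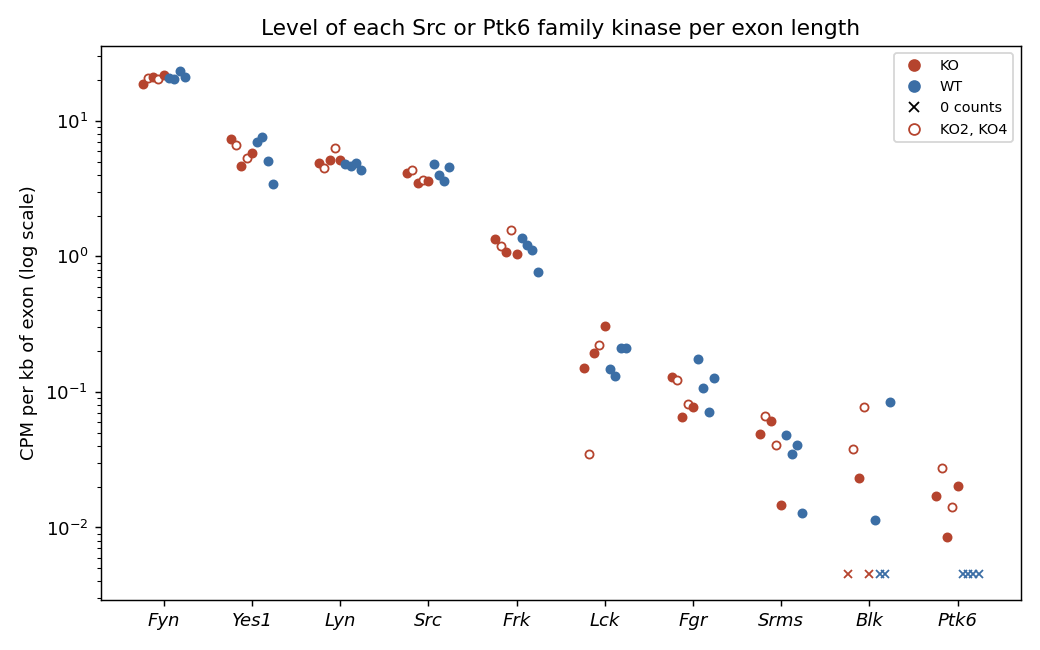
Level of the 9 members and of Blk in each of 9 mice, in CPM per kb of exon on a log scale, with KO mice in red (open circles for KO2 and KO4) and WT mice in blue; crosses at the foot mark mice with 0 counts and have no height on the scale. Fyn stands above all others, Yes1, Lyn and Src lie together, and for Ptk6 the 4 WT mice are at 0.

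The members also differed in how much they varied between mice. The coefficient of variation of CPM over 9 mice was 6.02% for Fyn, 11.3% for Lyn and 11.6% for Src. It was 23.9% for Yes1 and 19.4% for Frk. Counting error alone would give 1.87% for Fyn, 2.68% for Yes1 and 7.09% for Frk at their mean counts. Separate mice exceed counting error in most well counted genes, so this says nothing particular about these members. For Fgr the variation was 33.9% against 27.7% from counting, and for Srms 44.9% against 54.8%, so differences between mice in these 2 genes were hardly larger than, or within, counting error. Lck varied by 42.2% against 24.7% from counting.

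Genotype did not separate the family as a whole. Of 9 members, 7 had enough counts to be tested with edgeR, and 0 of these 7 were called, which required an unadjusted p under 0.05 and a false discovery rate (FDR) below 25%. Over all 21809 genes tested in the same fit 0% were called. At an unadjusted p under 0.05, 0 of 7 members passed, against 2.08% of all genes. In 9 mice 0 of 7 members passed at an unadjusted p under 0.05, against 2.03% of 21735 genes. In the main fit 4 members were higher and 3 lower in KO mice. The median of their log2 fold changes was 0.028, beside -0.0081 over all genes. The median absolute log2 fold change was 0.12 for the members and 0.10 for all genes. FDR was 0.9996 for each tested member in 7 mice.

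**Figure D2:**
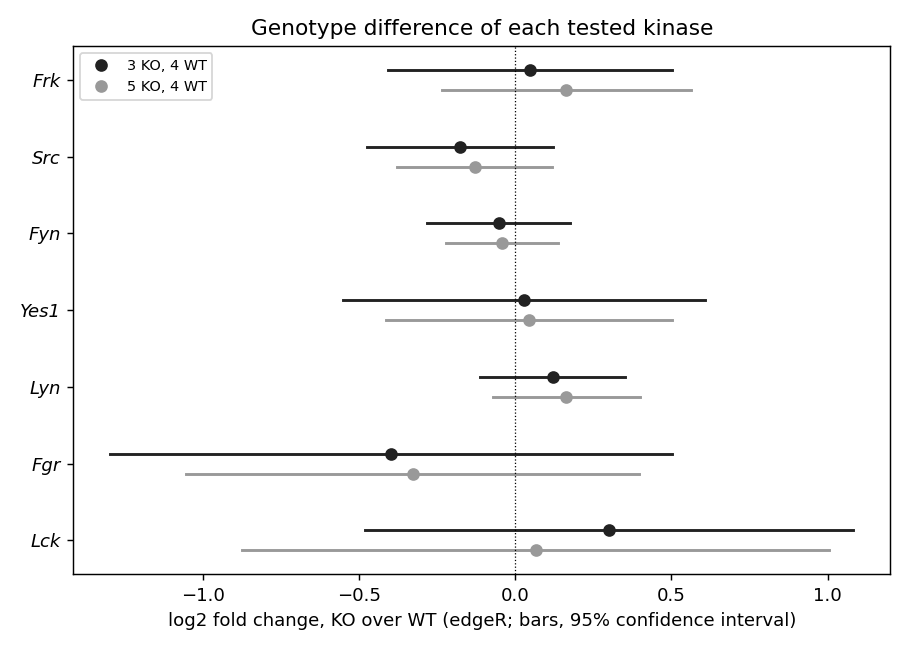
Log2 fold change of KO over WT for the 7 tested members from edgeR, with points for the estimate and bars for its 95% confidence interval, in 7 mice (black) and 9 mice (grey). All intervals include 0, that of Fyn is the narrowest, and those of Fgr and Lck are the widest.

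Ptk6 was at the edge of detection and was counted in KO mice alone. The raw counts were 2 in KO1, 3 in KO2, 1 in KO3, 2 in KO4 and 2 in KO5, and 0 in each of the 4 WT mice. Every KO mouse therefore lay above every WT mouse, by 1 to 3 counts. In CPM the KO mice were at 0.0627, 0.102, 0.0315, 0.0522 and 0.0750. Pooled over KO1, KO3 and KO5, 5 counts gave 0.0554 CPM, with an exact Poisson 95% interval of 0.0180 to 0.129. The 0 counts in 125192132 pooled counts of the WT mice allow up to 0.0238 CPM by the floor of 3 counts, and 0.0293 CPM by the exact upper bound. Set against the floor of 3 counts over the WT group, the pooled level was at least 2.33-fold higher in the 3 KO mice and at least 2.66-fold higher in all 5. These ratios leave out the counting error of the KO mice: for the 3 KO mice, the lower end of the interval lies below both limits of the WT group, and for all 5, at 0.0303 CPM, just above them. These intervals and floors cover counting error only.

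Ptk6 did not pass the filter on low counts and got no fitted value in the main comparison. A 2-sided exact permutation test of its mean log2 CPM gave p = 0.0286 in 7 mice and p = 0.00794 in 9 mice, the smallest values these designs can give. The study had already named Ptk6 among its most raised genes in these data, so these p-values are not independent of that choice. With the filter removed, edgeR gave an unadjusted p of 0.0178 in 7 mice and 0.00423 in 9 mice, and an FDR over all genes of 0.998 and 0.972, so Ptk6 was not called. Among the 38635 genes with a count in any mouse, 11 (0.0285%) had counts in each KO mouse and 0 in each WT mouse, and 13 (0.0336%) showed the opposite. Of the 11 genes 5 code for protein, and the 4 besides Ptk6, named after their values were seen, were Tinag, Tnfsf14, Kcnk18 and Gm47995. Total counts of the 11 genes were 6 to 16. Of the 13 genes with the opposite pattern 1 codes for protein, and their total counts were 4 to 7, all below the 10 counts of Ptk6.

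Ptk6 is typical of epithelia, and skin can be taken along with muscle, so 12 epidermal markers were summed in each mouse. The sum was 19.4 CPM in KO1, 18.1 in KO2, 34.2 in KO3, 35.03 in KO4 and 51.5 in KO5. It was 24.0 CPM in WT1, 34.6 in WT2, 24.1 in WT3 and 76.4 in WT4. The groups overlapped, and WT4, with the highest epidermal sum, had 0 counts of Ptk6, whereas KO2, with the lowest sum, had the highest count of 3. The most abundant of the markers, Trp63, a transcription factor of basal keratinocytes, ranged from 4.88 to 10.01 CPM, and 0 of the 12 markers were at 0 in every mouse. The part of skin in the counts of Ptk6 was not tested.

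**Figure D3:**
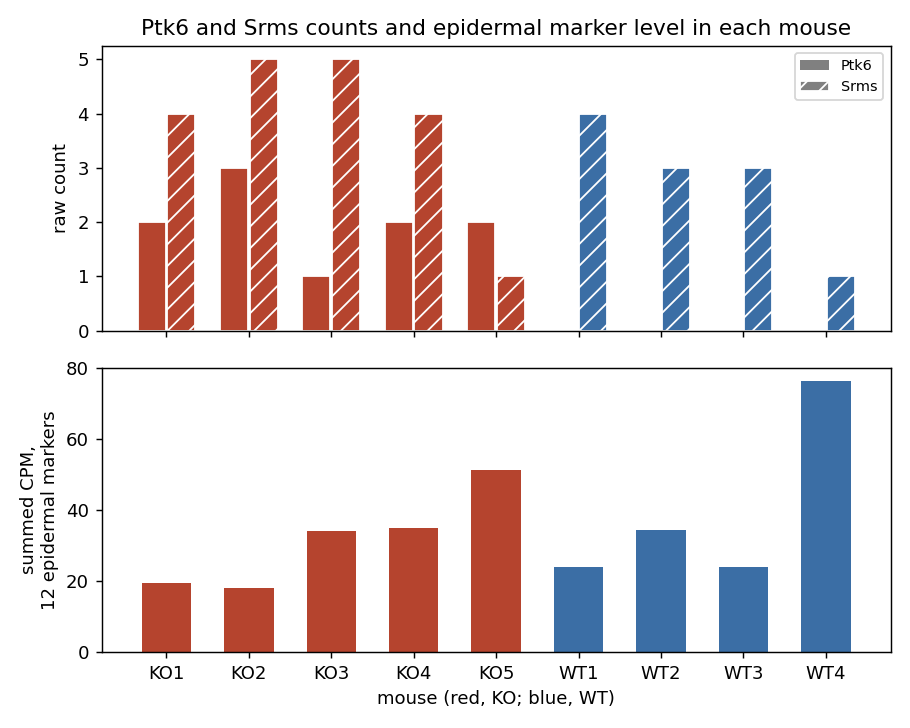
Raw counts of Ptk6 (plain bars) and Srms (hatched bars) in each mouse, above the summed CPM of 12 epidermal markers in the same mice, with KO mice in red and WT mice in blue. Ptk6 has 1 to 3 counts in each KO mouse and 0 in each WT mouse, Srms is counted in all 9 mice, and the epidermal sum is highest in WT4.

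Srms, the neighbour of Ptk6, was counted in every mouse. The raw counts were 4, 5, 5, 4 and 1 in KO1 to KO5 and 4, 3, 3 and 1 in WT1 to WT4. The lowest KO mouse, KO5, and the lowest WT mouse, WT4, each had 1 count, and the groups overlapped. Mean levels were 0.107 ± 0.0621 CPM (SD, n = 3) in KO and 0.0870 ± 0.0389 CPM (SD, n = 4) in WT mice. The exact permutation test gave p = 0.629 in 7 mice. Pooled over all 5 KO mice, 19 counts gave 0.120 CPM (exact Poisson 95% interval 0.0723 to 0.188), against 0.0873 CPM from 11 counts in WT mice (0.0436 to 0.156). A difference was not detectable at this depth.

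Frk, the third relative of Ptk6, was expressed well above both. Its level was 7.06 CPM in KO1, 6.23 in KO2, 5.64 in KO3, 8.20 in KO4 and 5.44 in KO5, against 7.24, 6.33, 5.85 and 4.01 CPM in WT1 to WT4. The highest mouse was KO4 and the lowest WT4, and the groups overlapped. In 7 mice the log2 fold change was 0.047 (SE 0.21, 95% interval -0.41 to 0.50), with p = 0.824 by edgeR and p = 0.886 by the exact permutation test.

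Src, the founding member, had the largest shift to lower values among the well expressed members in the main fit, without passing the test. It stood at 18.1, 18.9, 15.3, 16.1 and 15.8 CPM in KO1 to KO5 and at 20.98, 17.5, 15.8 and 19.9 CPM in WT1 to WT4. In WT3 it was as low as in KO5, so the groups overlapped. Means were 16.4 ± 1.496 CPM (SD, n = 3) in KO and 18.5 ± 2.36 CPM (SD, n = 4) in WT mice. The log2 fold change was -0.18 (SE 0.13, 95% interval -0.47 to 0.12), with p = 0.218 by edgeR and p = 0.314 by the exact permutation test.

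Fyn, which acts in adhesion and receptor signalling, was the steadiest member. Values were 81.4, 90.4, 91.5, 88.8 and 95.6 CPM in KO1 to KO5 and 89.9, 88.5, 101.7 and 91.7 CPM in WT1 to WT4. KO1 was the lowest and WT3 the highest mouse, 1.25 times apart. Its log2 fold change was -0.053 (SE 0.10), and the 95% interval of -0.28 to 0.18 is the narrowest among the members. The p-values were p = 0.621 by edgeR and p = 0.514 by the exact permutation test.

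Yes1, a close relative of Src and Fyn, varied most among the abundant members. It stood at 54.8, 50.3, 34.7, 39.7 and 43.3 CPM in KO1 to KO5 and at 52.7, 57.4, 38.0 and 25.8 CPM in WT1 to WT4. Both the highest mouse, WT2, and the lowest, WT4, were WT, 2.23 times apart. Between genotypes the log2 fold change was 0.028 (SE 0.26, 95% interval -0.55 to 0.61), with p = 0.916 by edgeR and p = 0.829 by the exact permutation test.

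Lyn, a kinase of myeloid and B cells, came closest to a separation by genotype among the tested members. It was at 20.01 CPM in KO1, 20.8 in KO3 and 21.04 in KO5, and at 19.5, 18.9, 19.8 and 17.8 CPM in WT1 to WT4. These 3 KO mice thus lay above all 4 WT mice, as 2.84% of all genes tested had groups apart in either direction. The difference was small, 20.6 ± 0.542 CPM (SD, n = 3) against 19.0 ± 0.891 CPM (SD, n = 4). The exact permutation test gave p = 0.0571, and edgeR gave a log2 fold change of 0.12 (SE 0.10, 95% interval -0.11 to 0.35) with p = 0.279. KO2, at 18.2 CPM, fell among the WT mice and KO4, at 25.5 CPM, was the highest of all, so that in 9 mice the groups overlapped. In 9 mice 0 of 7 tested members had groups apart, against 0.704% of all genes. The summed level of 8 macrophage markers was 206.3, 169.8, 151.6, 222.9 and 202.7 CPM in KO1 to KO5 and 156.5 to 204.6 CPM in WT mice. KO4 was the highest mouse for both Lyn and this sum, whereas KO3, the lowest for the sum, was not low for Lyn. In the 7 mice the mean of the sum was 186.8 ± 30.6 CPM (SD, n = 3) in KO and 177.9 ± 19.9 CPM (SD, n = 4) in WT mice, the same direction as Lyn. Of the 8 markers 5 were higher and 3 lower in KO mice. The part of macrophages in the values of Lyn was not tested. In bulk muscle, fewer cells of a type and less RNA per cell cannot be told apart.

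Fgr, another myeloid kinase, had 16, 14, 8, 12 and 8 counts in KO1 to KO5 and 22, 14, 8 and 15 in WT1 to WT4. The groups overlapped, with WT1 highest and KO3, KO5 and WT3 at 8 counts each. The log2 fold change was -0.40 (SE 0.41, 95% interval -1.30 to 0.50), with p = 0.351 by edgeR and p = 0.4 by the exact permutation test. The sum of 7 neutrophil markers, with S100a9 the most abundant, was 3.02 to 13.2 CPM in KO and 5.78 to 15.01 CPM in WT mice. In the 7 mice its mean was 8.26 ± 5.10 CPM (SD, n = 3) in KO and 11.8 ± 4.12 CPM (SD, n = 4) in WT mice, the same direction as Fgr. Of the 5 neutrophil markers tested 4 were lower and 1 higher in KO mice, and 1 had an unadjusted edgeR p under 0.05. For 8 macrophage markers the mean sum ran the other way, at 186.8 ± 30.6 CPM (SD, n = 3) in KO and 177.9 ± 19.9 CPM (SD, n = 4) in WT mice. Of these, 5 were higher and 3 lower in KO mice. The part of either set of markers in the values of Fgr was not tested.

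Lck, the kinase that starts signalling from the T-cell receptor, had 14, 3, 18, 25 and 24 counts in KO1 to KO5 and 14, 13, 18 and 19 in WT1 to WT4. KO2 was far below the other mice, at 0.102 CPM against 0.385 to 0.900 CPM. The log2 fold change was 0.30 (SE 0.35, 95% interval -0.48 to 1.08) in 7 mice and 0.07 in 9 mice, with p = 0.415 and p = 0.882 by edgeR and p = 0.457 and p = 0.873 by the exact permutation test. The sum of 8 T-cell markers was 7.35 CPM in KO2, within the range of 4.34 to 9.15 CPM of the 9 mice. Whether T-cell content differed in KO2 was not tested. Cd3e was the most abundant of these markers, and 3 of the 8 had enough counts to be tested. All 3 had higher values in KO mice with 0 at an unadjusted edgeR p under 0.05. The sum of the T-cell markers was 7.91 ± 1.24 CPM (SD, n = 3) in KO and 6.06 ± 1.22 CPM (SD, n = 4) in WT mice, the same direction as Lck in the main fit of 7 mice. Their part in the values of Lck was not tested.

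**Figure D4:**
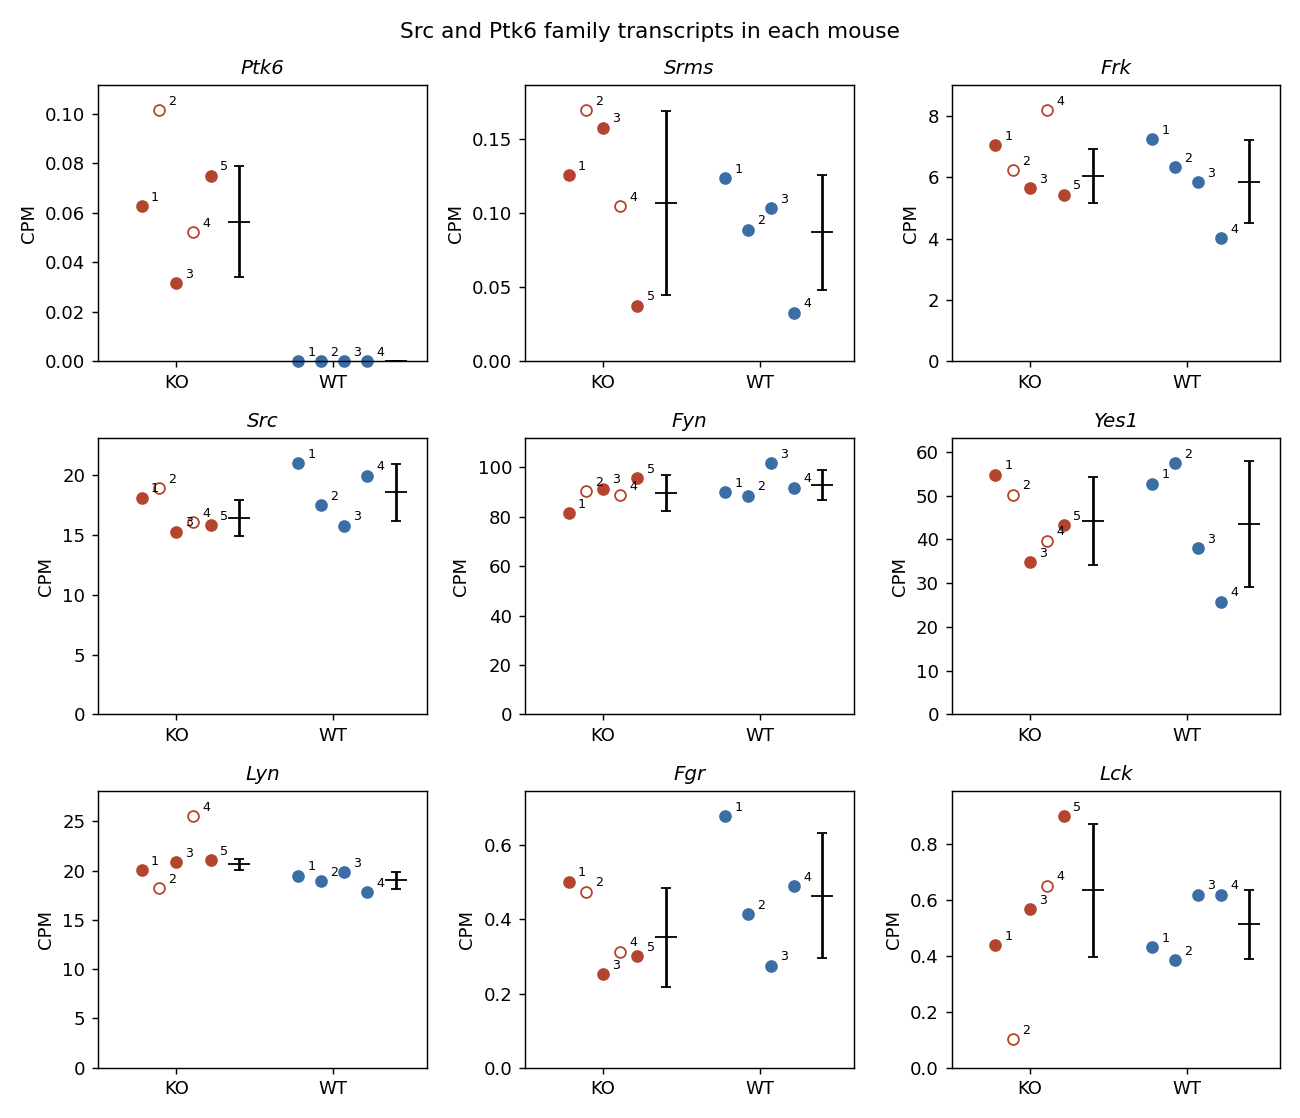
CPM of each of the 9 members in each mouse (number beside the point), with a separate axis from 0 for each gene; open circles are KO2 and KO4, and black bars give the mean and SD of KO1, KO3 and KO5 and of the 4 WT mice. KO and WT overlap for all members but Ptk6 when all 9 mice are read, and for Lyn the 3 filled KO points lie just above the WT points.

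Blk, a Src family kinase outside the 9, was near the limit of detection. It had 0, 3, 2, 8 and 0 counts in KO1 to KO5 and 1, 0, 0 and 7 in WT1 to WT4, and did not pass the filter. KO4 and WT4 held 15 of its 21 counts. The 4 B-cell markers summed to 0.630 to 2.18 CPM in KO and 1.20 to 2.25 CPM in WT mice.

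Levels of some members also ran along a division of the mice that the labels do not give, though no member passed the FDR for it. Xist, the RNA that coats the inactive X chromosome of female cells, was high in 4 mice (WT3, WT4, KO3 and KO5, 620.8 to 926.6 CPM) and low in the other 5 (0.135 to 3.21 CPM). The sum of 4 Y-linked genes (Ddx3y, Uty, Kdm5d and Eif2s3y) was 188.8 to 248.2 CPM in the mice with low Xist and 0.0750 to 0.424 CPM in those with high Xist, so the division is that of male and female mice. Both genotypes occur on each side of it. Frk was at 6.23 to 8.20 CPM in the 5 mice with low Xist and at 4.01 to 5.85 CPM in the 4 mice with high Xist, with no overlap. For Yes1 the ranges were 39.7 to 57.4 and 25.8 to 43.3 CPM, and KO4 and KO5 overlapped. Fyn ran the other way, at 81.4 to 90.4 CPM in mice with low and 91.5 to 101.7 CPM in mice with high Xist. Non-overlapping values on this division were found in 2.38% of all genes tested.

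In an edgeR fit of 9 mice with genotype and the Xist division, Yes1 was higher in mice with low Xist by a log2 difference of 0.52 (SE 0.15, FDR 0.480), with an unadjusted p of 0.00496. The difference of Frk was 0.41 (SE 0.15, FDR 0.504), with an unadjusted p of 0.0174. That of Fyn was -0.11 (SE 0.081, FDR 0.701), with an unadjusted p of 0.196, above 0.05. A 2-sided exact permutation test of the division alone gave p = 0.0238 for Yes1 and p = 0.00794 for Frk and for Fyn, the smallest value that 5 mice against 4 can give. For each of the remaining members it gave 0.0556 or more. Among the tested members Yes1 and Frk alone reached an unadjusted edgeR p under 0.05 for the Xist term, as did 8.96% of all genes. No member passed the FDR. The genotype difference of Yes1 took opposite signs within the division, with a log2 ratio of mean CPM of -0.19 among mice with low and 0.29 among mice with high Xist. For Src the corresponding ratios were -0.12 and -0.20, and for Lyn 0.15 and 0.15. In the main comparison KO1 has low and KO3 and KO5 have high Xist, against WT1 and WT2 with low and WT3 and WT4 with high. With the Xist term in 7 mice the log2 fold change by genotype moved from 0.028 to 0.17 for Yes1 and from 0.047 to 0.12 for Frk. That of Lck moved from 0.30 to 0.19. Whether sex or another difference between the same mice goes with the levels of these members was not tested.

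**Figure D5:**
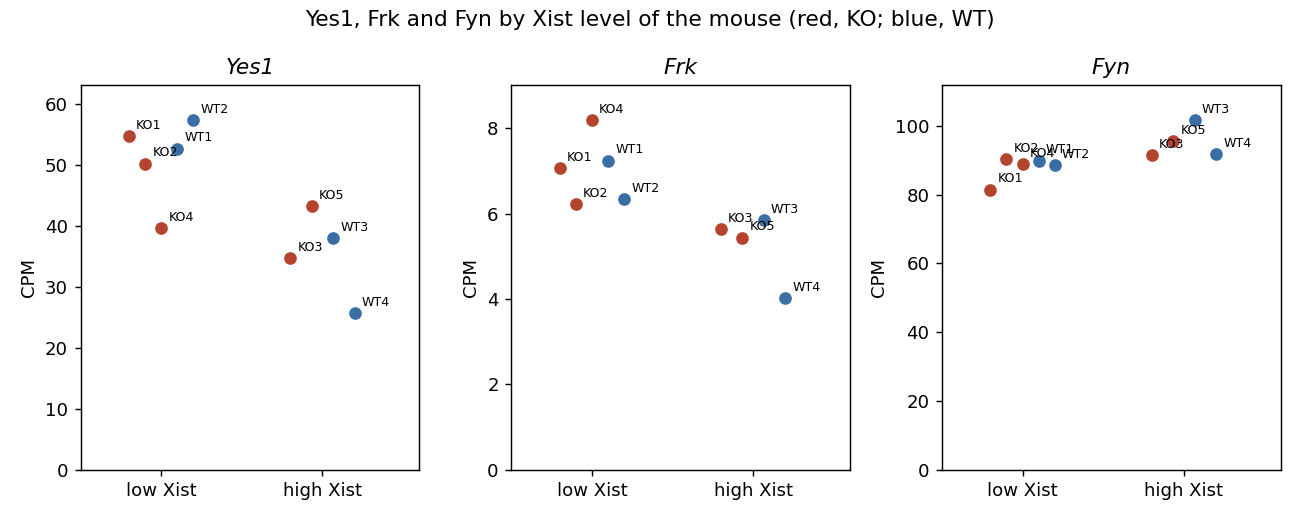
CPM of Yes1, Frk and Fyn in each mouse, with mice split into 5 with low and 4 with high Xist, KO in red and WT in blue, each axis starting at 0. Frk is higher and Fyn lower in all mice with low Xist than in any with high Xist, whereas for Yes1 the 2 sides overlap by KO4 and KO5.

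The partners of the family showed no called change. Among 11 regulators, which include Csk, anchors of Csk and phosphatases, 5 were higher and 6 lower in KO mice, 0 were called and 0 had an unadjusted edgeR p under 0.05. The median log2 fold change was -0.041, beside -0.0081 over all genes. Csk, given for its role, stood at 42.7 ± 5.18 CPM (SD, n = 3) in KO and 44.3 ± 0.854 CPM (SD, n = 4) in WT mice, with a log2 fold change of -0.053 (SE 0.11). The regulators with the smallest p were the phosphatases Ptpre, at 7.75 ± 3.01 CPM in KO (n = 3) and 6.28 ± 2.00 CPM in WT mice (n = 4), and Ptpra, at 61.0 ± 3.00 and 64.7 ± 5.64 CPM. Their edgeR p-values were 0.340 and 0.443.

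Of 16 Src substrates and adaptors, 8 were higher and 8 lower, 0 were called and 0 had an unadjusted edgeR p under 0.05, around a median log2 fold change of -0.0016. The smallest p was that of Cav1, the caveolin phosphorylated by Src, at 522.2 ± 68.2 CPM in KO (n = 3) and 443.6 ± 47.3 CPM in WT mice (n = 4), with a log2 fold change of 0.24 (SE 0.13), p = 0.0964 by edgeR and p = 0.143 by the exact permutation test. KO2, outside that fit, had 327.9 CPM of Cav1, the lowest of all mice, and KO4 had 619.7 CPM, the highest. Cav1 is abundant in endothelium, and the summed level of 5 endothelial markers was likewise lowest in KO2 (584.6 CPM) and highest in KO4 (809.9 CPM). All 5 had higher values in KO mice with 0 at an unadjusted edgeR p under 0.05, and their sum was 722.8 ± 21.1 CPM (SD, n = 3) in KO and 672.0 ± 43.3 CPM (SD, n = 4) in WT mice. Their part in the values of Cav1 was not tested. Arhgap35, a GTPase-activating protein, followed with a log2 fold change of -0.15 (SE 0.11, FDR 0.9996).

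Of 15 PTK6 substrates, 14 were tested, 5 were higher and 9 lower, 0 were called and 0 had an unadjusted edgeR p under 0.05, around a median log2 fold change of -0.046. Khdrbs1 was at 120.1 ± 9.42 CPM in KO (n = 3) and 134.6 ± 5.29 CPM in WT mice (n = 4), a log2 fold change of -0.16 (SE 0.094), with p = 0.112 by edgeR and p = 0.0571 by the exact permutation test. In 9 mice the value was again -0.16, with p = 0.0655 by edgeR (FDR 0.9999) and p = 0.0238 by the exact permutation test, and it was not called. Its relative Khdrbs3 had a log2 fold change of 0.34 (SE 0.25, FDR 0.9996). Ctnnb1, which encodes beta-catenin and was singled out after its values were seen, had the smallest exact permutation p that 7 mice allow (p = 0.0286), at 410.7 ± 26.2 CPM in KO (n = 3) and 446.4 ± 18.5 CPM in WT mice (n = 4). Its log2 fold change was -0.12 (SE 0.099) with an FDR of 0.9996 by edgeR, and in 9 mice the exact permutation test gave p = 0.0635. In 9 mice 7 of these 14 genes were higher and 7 lower.

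Of 21 other cytoplasmic tyrosine kinases, 19 were tested, 9 were higher and 10 lower, 0 were called and 0 had an unadjusted edgeR p under 0.05, around a median log2 fold change of -0.011. Btk, a kinase of B and myeloid cells, was at 2.07 ± 0.956 CPM in KO (n = 3) and 1.52 ± 0.532 CPM in WT mice (n = 4), and Abl1 at 107.8 ± 6.20 and 116.1 ± 8.31 CPM. Both had an FDR of 0.9996 by edgeR.

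The tissue label held for all 9 libraries. The 8 muscle markers summed to 53430 to 61405 CPM, with Acta1, skeletal muscle actin, at 17573 to 21280 CPM. The 5 endothelial markers summed to 584.6 to 809.9 CPM, with Cdh5 the most abundant, and the 4 fibroblast markers to 5877 to 14065 CPM, with Col1a1 the most abundant. In each of these lists 0 markers were at 0 in every mouse. The part of any of these cell types in the levels of the kinases was not tested.

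As a description, the genes whose log2 CPM followed each member most closely over 9 mice were sought among 21735 genes. A high maximum of Pearson's r over so many genes and 9 mice carries little weight, and the mice share the Xist division and their differences in depth. Yes1 was followed by Dnajb14 (r = 0.986, Spearman's rank correlation 1) and Purb (r = 0.983), and Frk by Igf1 (r = 0.953) and Nfat5 (r = 0.951). Fyn was followed by Zfp385c (r = 0.972) and Cdca7l (r = 0.955), and Lyn by Pi4k2b (r = 0.963) and Pgm2 (r = 0.959). The gene closest to Src was Fgr (r = 0.968, rank correlation 0.950, n = 9), and Src was second to Phc2 (r = 0.972) for Fgr. Without the 2 mice farthest from the median of Src, r between Src and Fgr was 0.936. The same step left r at 0.644 for Fyn and Cdca7l, 0.774 for Lyn and Pgm2 and 0.773 for Frk and Igf1, so these rest in part on such mice, and at 0.833 or more for the other pairs named. Fgr rests on 8 to 22 counts per mouse. Snora73b was second for Src (r = 0.935), and Lck was followed by Vps29 (r = 0.960) and Tmem14a (r = 0.951). Between the members themselves, Frk and Yes1 had r = 0.696 and Src and Lyn r = -0.598 over the same 9 mice.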

How the data were processed

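Total RNA of 9 gastrocnemius muscles was sequenced. The authors aligned reads to mm10 (GRCm38) with HISAT2, kept concordantly mapped reads and deposited raw counts per Ensembl gene from featureCounts (Subread). Neither the annotation release nor the strand setting of the counting is stated in the paper or labels, so a gene and its antisense partner cannot be told apart. Symbols, positions and exon lengths were taken from GENCODE M21 (same build).

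Counts were normalised by TMM and tested with edgeR 4.0.16 (quasi-likelihood, robust; filterByExpr with a minimum count of 10 and a minimum total of 15) in R 4.3.3, KO1, KO3 and KO5 against 4 WT mice as in the study. A gene was called at an unadjusted p under 0.05 with a Benjamini-Hochberg FDR below 25% over all genes. The SE is the log2 fold change divided by the square root of F. Means of log2 CPM (prior count 2) were also compared by exact permutation, 2-sided. Where a sentence gives CPM or CPM per kb, values are TMM-scaled over 9 mice. High Xist means above 100 CPM. Low counts have exact Poisson 95% intervals and a floor of 3 counts. Scripts were tested on simulated data.

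Alternatives were 9 mice, DESeq2 1.42.0, limma 3.58.1 (voom), RLE, other filters, a replicate block, an Xist term and leaving out each mouse. Named genes were all members, Blk, the 2 genes of smallest p in each list, the most abundant marker of each list, and the 2 closest genes for members with at least 100 counts. Members and lists were chosen with earlier results of these data known. Replicates differed from one another by far more than sampling noise, with a chi-square per degree of freedom of 28.1 or more in each pair. Some items of the lists are not reported here.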

Additional observations from a re-analysis of the deposited data

Results flagged for a closer look

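In the WT group Blk, the B-cell kinase, was at 0.228 CPM in WT4 (7 counts), far from the other 3 WT mice, at 0 to 0.0308 CPM. The gap to the next mouse was 0.865 of the range of the group. Chance flags about 1 in 20 groups, and this was the 1 flag among 19 groups of mice examined over 10 kinases. The B-cell marker sum of WT4 was 1.83 CPM, within the 1.20 to 2.25 CPM of the WT mice.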

How the results depend on the processing

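No member was called under any of the 18 alternatives fitted, among which the lowest FDR of a tested member was 0.972. Of 125 alternative log2 fold changes of the 7 tested members, 114 kept their sign and 11 did not. Over all genes, the number called was 0 in the main comparison, 6 with DESeq2, 1 without the filter and 1 with the Xist term in 7 mice. With a replicate block it was 9 in 7 mice and 2 in 9 mice, and leaving out single mice gave 0 to 15 (15 without KO1, 4 without KO3 and 1 without WT2). The cause was not tested. The fit of 9 mice without a filter, which called 0 genes, was chosen after seeing the data. Under a replicate block only numbers with both genotypes inform the genotype difference. In 7 mice the block thus sets KO1 and KO3 against WT1 and WT3, and in 9 mice KO5 has no partner. With the replicate block in 7 mice the log2 fold change was -0.044 for Frk, -0.034 for Yes1 and -0.056 for Lck, and with the block in 9 mice -0.29 for Lck. Those of Frk and Yes1 turned sign from values near 0, and that of Lck from 0.30. Without a change of sign, the block in 7 mice moved Fyn from -0.053 to -0.15, Src from -0.18 to -0.13 and Lyn from 0.12 to 0.056. Deviations of same-numbered mice correlated at 0.373, 0.0524, 0.357 and 0.101. KO1, KO3 and KO4 correlated best with the WT mouse of their own number, and KO2 with WT1 (0.269), so the numbers are a hint of pairing that does not hold for every pair. The mice numbered 1 and those numbered 3 also share a side of the Xist division, as do KO3 and WT4 (0.282), whereas KO3 and WT1 (-0.441) and KO1 and WT4 (-0.279) do not. Other pairs did not follow the division: KO4 and WT1 (-0.188) and KO5 and WT3 (-0.134) share a side, and KO4 and WT4 (0.101) do not. Whether the division goes with these correlations was not tested.

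Leaving out single mice gave log2 fold changes of -0.093 to 0.17 for Frk, -0.11 to 0.015 for Fyn, -0.15 to 0.19 for Yes1 and -0.033 to 0.51 for Lck. For Src they were -0.25 to -0.11 (-0.11 without WT1), for Fgr -0.75 to -0.15 (-0.75 without KO1, -0.20 without KO3 and -0.15 without WT1) and for Lyn 0.094 to 0.15. The difference in mean log2 CPM of Srms was -0.081 to 0.48, and that of Ptk6 0.79 to 1.06, higher in KO mice each time. With a prior count of 0.5 in place of 2 the difference of Ptk6 was 2.14 in place of 0.90, since the prior stands in for the 0 counts of the WT mice. For Ptk6 with 1 mouse fewer the exact permutation p was 0.0667 or 0.1, the smallest those designs can give. Depth limits Ptk6, Srms, Blk, Fgr and Lck most: 1 to 3 counts per KO mouse make up the level of Ptk6, and Srms had 1 to 5.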
